A study of Mus musculus with 6 samples.

Results

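The genes described here carry out V(D)J recombination, the cutting and rejoining of antigen receptor gene segments in developing lymphocytes. They were chosen by name, as all probe sets whose platform gene symbol was Rag1, Rag2, Dntt, Prkdc, Dclre1c, Xrcc5, Xrcc6, Xrcc4, Lig4 or Nhej1. Of these 10 genes, 9 were read, by 14 of the 45101 probe sets in the table, and Dclre1c was not analysed here. Double negative thymocytes, T cell precursors without the CD4 and CD8 coreceptors, had been sorted by flow cytometry per the sample descriptions, from 3 mice labelled Egr1/Egr3 double knockout and 3 labelled wild type, with 1 single-colour array for each animal. Titles and source names of the same samples speak of whole thymus. The labels name neither the alleles nor the strain, age or sex of the mice, and no treatment beyond the sort.

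In V(D)J recombination the RAG1 and RAG2 proteins form the recombinase that cuts DNA beside receptor gene segments and leaves hairpin ends. The Ku heterodimer, encoded by Xrcc5 and Xrcc6, binds the ends and recruits the kinase DNA-PKcs (Prkdc) with the nuclease Artemis (Dclre1c), which opens the hairpins. Terminal transferase (Dntt) adds nucleotides without a template, and DNA ligase IV (Lig4), XRCC4 and XLF (Nhej1) seal the join. In the thymus, double negative cells rearrange T cell receptor beta, gamma and delta genes, and the Rag genes and Dntt are confined to lymphoid precursors, whereas the end joining genes act in most cell types.

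EGR1 and EGR3 are zinc finger transcription factors, so the DNA before the start of the recombinase genes and of the called members is shown. Each line holds the 250 bases upstream of an annotated start in RefSeq's GRCm38.p6 promoter table, written 5′ to 3′ on the gene's strand. Capitals mark matches to 5 motifs searched on both strands, GCGNGGGCG (EGR), CAGGTG (E proteins), TGTGGT (RUNX), GTAAACA (FOXO) and CCAAT (NF-Y).
Rag1 (chr2:101649533-101649782, minus strand): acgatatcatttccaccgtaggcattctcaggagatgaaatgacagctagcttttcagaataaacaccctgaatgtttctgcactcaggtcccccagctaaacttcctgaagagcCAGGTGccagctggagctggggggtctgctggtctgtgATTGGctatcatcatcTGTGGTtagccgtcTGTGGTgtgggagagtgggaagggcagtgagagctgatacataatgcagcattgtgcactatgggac
Rag2 (chr2:101624462-101624711, plus strand): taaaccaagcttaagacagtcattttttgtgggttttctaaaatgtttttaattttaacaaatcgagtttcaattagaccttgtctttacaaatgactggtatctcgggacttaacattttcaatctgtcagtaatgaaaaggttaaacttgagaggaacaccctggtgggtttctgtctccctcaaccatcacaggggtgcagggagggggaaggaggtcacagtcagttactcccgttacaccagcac
Dntt (chr19:41029025-41029274, plus strand): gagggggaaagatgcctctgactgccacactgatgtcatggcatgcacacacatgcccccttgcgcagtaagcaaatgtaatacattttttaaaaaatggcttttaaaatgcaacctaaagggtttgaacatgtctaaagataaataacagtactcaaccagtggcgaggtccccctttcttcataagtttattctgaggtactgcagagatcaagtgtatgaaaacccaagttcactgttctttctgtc
Xrcc6 (chr15:82016119-82016368, plus strand): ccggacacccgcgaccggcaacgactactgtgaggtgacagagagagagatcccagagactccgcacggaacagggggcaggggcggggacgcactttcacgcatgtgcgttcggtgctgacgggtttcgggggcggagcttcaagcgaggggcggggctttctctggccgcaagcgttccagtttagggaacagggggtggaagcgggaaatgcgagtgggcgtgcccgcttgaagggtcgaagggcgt

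The Rag1 window held 1 CAGGTG, 2 TGTGGT and, read on the other strand as ATTGG, 1 CCAAT, none of which overlapped another. No match to any of the 5 motifs lay in the Rag2, Dntt or Xrcc6 windows. In the 10 windows of 9 members, with 2 starts for Lig4 and Prkdc not searched, GCGNGGGCG was not found. It was present in 4.7% of the 32851 windows of the same length in the table. The other motifs were present in 17.2% (CAGGTG), 14% (TGTGGT), 3.17% (GTAAACA) and 33.8% (CCAAT) of those windows. Rag1 and Rag2 lie beside each other and, by the strands above, are transcribed towards each other.

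Several arrays stood apart or went against their labels. Egr1 was higher in the arrays labelled double knockout, at 1757, 1696 and 1221, against 508, 509 and 455 in the wild type arrays, so genotypes are named below as labelled; the place of its probe set relative to the disrupted part is not stated in the labels. Egr3 was dim, and the brighter of its probe sets read 34.4, 45.8 and 32.9 on the arrays labelled double knockout, against 92.2, 83.1 and 30.8 on the wild type arrays, with overlap (-0.59, limma adjusted p = 0.368). Its dimmer probe set gave -0.066 (adjusted p = 0.941). The long noncoding RNA Xist, made in female cells, and Eif2s3y, a gene of the Y chromosome, were both read on the 3 arrays labelled double knockout (Xist between 3910 and 6015, Eif2s3y between 186 and 265) and on wild type replicate 1 (1439 and 476), although the labels give 1 animal for each. Eif2s3y read 13.2 and 0.625 on wild type replicates 2 and 3. Of other Y genes, Kdm5d and Uty read 144 and 63.7 on wild type replicate 1 at their brightest probe sets. On the arrays labelled double knockout they read 17.5, 29.5 and 10.3 (Kdm5d) and 11.4, 11.6 and 23.4 (Uty). These 2 probe sets lay above the brightest bacterial control on 2 and 1 of the 6 arrays. The summed intensity of 11 granulocyte genes was between 18601 and 27935 in the arrays labelled double knockout and 11584, 25152 and 351 in the wild type arrays, so wild type replicate 3 nearly lacked them, with S100a8 at 20.4, under its brightest bacterial control. Of 4 markers of the double positive stage, Cd4 lay under the brightest of 27 bacterial control probe sets on all 6 arrays, while the other 3 (Cd8a, Cd8b1 and Ccr9) lay above it on all 6. In such sorted pools, fewer cells of a type and less RNA per cell cannot be told apart.

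All 14 probe sets passed the filter on dim probe sets, and 2 of them changed in limma's moderated test at an adjusted p of 0.05, 1 lower (Dntt) and 1 higher (Xrcc6). The background was 5.03% of all 27022 probe sets tested, with 2.91% called higher and 2.11% called lower. The groups did not overlap for 3 of the 14, 2 lower and 1 higher, a share near the 23.9% found over all probe sets (12.3% higher, 11.6% lower) and so no result about these genes. The change was negative for 10 probe sets, 3 of them of Dntt, and positive for 4, against 50.3% positive over all probe sets tested. The median was -0.41, against 0.0025 over all probe sets tested. Under other settings the members' median lay between -0.45 (offset 1) and -0.20 (without double knockout replicate 2). Changes are differences in log2(intensity + 16), arrays labelled double knockout minus wild type arrays.

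**Figure D1:**
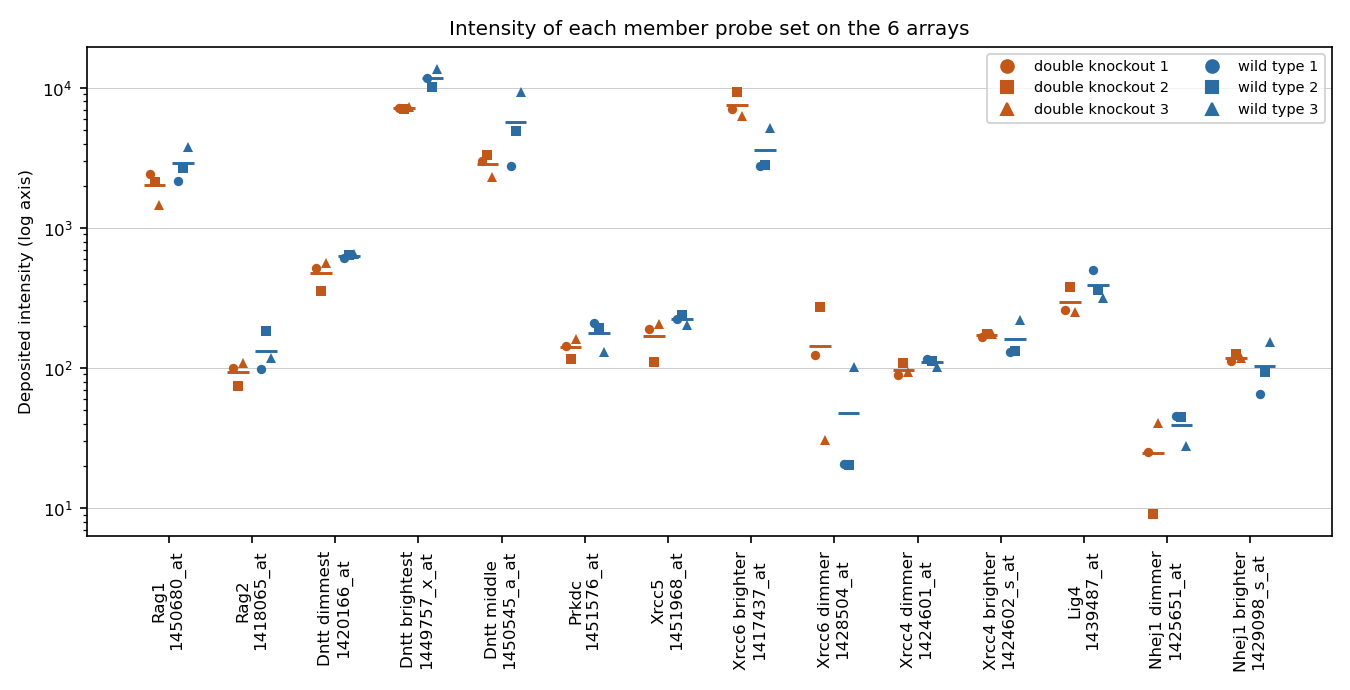
Deposited intensity (log axis) of each of the 14 probe sets, with the 3 arrays labelled double knockout on the left (orange) and the 3 wild type arrays on the right (blue) of each position, and horizontal bars at the group means. The groups separate at the brighter Xrcc6 probe set and at the brightest and dimmest of Dntt, and levels of different probe sets are not comparable with each other.

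Rag1, the catalytic subunit of the recombinase, read 2433, 2133 and 1465 on the arrays labelled double knockout, against 2176, 2693 and 3794 on the wild type arrays. The groups overlapped, since double knockout replicate 1 lay above wild type replicate 1. The mean was 2010 ± 496 in arrays labelled double knockout and 2888 ± 826 in wild type arrays (SD, n = 3 each), a log2 change of -0.53 (SE 0.27, 95% interval -1.12 to 0.06, limma adjusted p = 0.327). That interval holds both no change and a fall by more than 1 on the log2 scale.

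Rag2, the partner subunit, read 99.7, 74.1 and 108 on the arrays labelled double knockout, against 99.0, 183 and 118 on the wild type arrays. Only wild type replicate 2 stood clear of the others. Its log2 change was -0.43 (SE 0.29, 95% interval -1.06 to 0.19, limma adjusted p = 0.467). The 2 recombinase genes thus had changes of similar size and neither passed the test, and their probe sets did not follow each other within the wild type arrays, where Rag1 was highest on replicate 3 and Rag2 on replicate 2.

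The genes that flank the Rag pair were examined for comparison, in their order along the chromosome. Iftap, next to Rag2, and Traf6 (a signalling ubiquitin ligase), Prr5l, Commd9 and Ldlrad3, beyond Rag1, had log2 changes of 0.027, 0.059, -0.048, 0.017 and 0.45. At the probe set of highest mean for each gene, none of the 5 passed in limma or had an unadjusted p under 0.05. Adjusted p over genes was 0.405 for Ldlrad3 and 0.926 for Traf6, the smallest of the 5, and the median change was 0.027. A dimmer Prr5l probe set gave 0.63, without overlap between the groups (limma unadjusted p = 0.0299, adjusted p over probe sets 0.202). It lay above the brightest bacterial control on 3 of the 6 arrays.

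Dntt had negative changes on all 3 of its probe sets, and 1 of them passed the test. The brightest read 7169, 7115 and 7304 on the arrays labelled double knockout, against 11665, 10144 and 13575 on the wild type arrays. Every array labelled double knockout lay below every wild type array, and the spread was narrower among those labelled double knockout. The mean was 7196 ± 97.2 in arrays labelled double knockout and 11795 ± 1719 in wild type arrays (SD, n = 3 each), a ratio of 0.61 and a log2 change of -0.72 (SE 0.17, 95% interval -1.09 to -0.35, limma adjusted p = 0.0334). It is an x_at probe set, of a kind that may also read other sequences.

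The call for the brightest Dntt probe set was lost when any 1 array other than wild type replicate 3 was left out. Calls over all probe sets also fell then, from 1358 to between 376 and 713. The direction was negative in each case, but adjusted p was 0.161, 0.101 and 0.0961 without double knockout replicates 1, 2 and 3, and 0.0945 and 0.0544 without wild type replicates 1 and 2. Without wild type replicate 3 it was 0.0277, with a change of -0.62.

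The other Dntt probe sets differed from it in spread. The dimmest read 518, 357 and 562 on the arrays labelled double knockout, against 615, 638 and 651 on the wild type arrays, without overlap, and its change of -0.44 did not pass (SE 0.26, limma adjusted p = 0.399). The probe set of middle brightness read 2981, 3330 and 2316 on the arrays labelled double knockout, against 2760, 4956 and 9266 on the wild type arrays. Here wild type replicate 1 lay among the arrays labelled double knockout while wild type replicate 3 was the highest of the 6. The change of -0.84 did not pass (SE 0.36, adjusted p = 0.233). Without wild type replicate 1 it was -1.29 and passed (adjusted p = 0.0463), and without wild type replicate 3 it was -0.41 (adjusted p = 0.394).

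A list of other genes taken as markers of the double negative stage was also lower in sum. The summed intensity of 8 such genes lay between 13917 and 17006 in the arrays labelled double knockout and between 22208 and 29271 in the wild type arrays. Among them Ptcra, which encodes pre-TCR alpha, and Il2ra, which encodes CD25, had changes of -1.89 (adjusted p over genes 0.000428) and -1.20 (0.00894), and the other 6 did not pass. The sum was carried by a few bright genes, Cd3d, Thy1, Cd3g and Ptcra, and not all members had the same sign. The groups overlapped for Cd3d and Cd3g and not for Thy1 and Ptcra. Whether the Cd3 genes and Thy1 mark this stage alone was not tested. Cd3d had a change of -0.081, while Kit and Cd44 had changes of 0.89 and 0.71 (adjusted p over genes 0.0678 and 0.295).

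The sum over 4 of 6 listed gamma-delta T cell genes was between 2091 and 2597 in the arrays labelled double knockout and between 640 and 1105 in the wild type arrays. The receptor genes Tcrg-C1 and Trdc were not analysed here. Gpr83 and Cd163l1 rose, by 2.73 and 1.47 (adjusted p over genes 0.000241 and 0.00913), and Cd163l1 made up most of the sum. Without Cd163l1, left out after its values were seen, the sum was 411, 387 and 394 in the arrays labelled double knockout. It was 187, 106 and 109 in the wild type arrays, so the groups still did not overlap. Gpr83, at 327, 301 and 319, made up most of that sum in the arrays labelled double knockout. Zbtb16 had a change of 0.57 and Sox13, a transcription factor, a change of -0.97, and neither passed (adjusted p over genes 0.196 and 0.0894).

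Of 6 NK cell genes tested, Nkg7 and Klrd1 rose, by 2.96 and 1.82 (adjusted p over genes 0.000241 and 0.0057), and the other 4 did not pass. Nkg7, a granule protein of cytotoxic lymphocytes, read 1929, 1243 and 2423 on the arrays labelled double knockout, against 216, 279 and 162 on the wild type arrays. Klrd1, an NK receptor chain, read 849, 657 and 1132 on the arrays labelled double knockout, against 326, 246 and 147 on the wild type arrays. The groups did not overlap for either gene. The list's sum did overlap, at 14870 to 15655 in the arrays labelled double knockout and 11861 to 16346 in the wild type arrays, with Gzma, a granule protease, as its brightest gene (change of -0.08). Without Gzma, left out after its values were seen, the sum was 3670, 2441 and 4382 in the arrays labelled double knockout and 921, 1222 and 494 in the wild type arrays. Of the defining markers, Ncr1 lay under the brightest bacterial control on all 6 arrays. The part of these marker changes in the Dntt values was not tested.

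B cell precursors also use the Rag genes and Dntt, and 9 B lineage genes were read. Their sum lay between 2461 and 2928 in the arrays labelled double knockout and between 1103 and 2047 in the wild type arrays, and 1 of the 8 tested rose, Cd79b, a signalling chain of the B cell receptor (1.10, adjusted p over genes 0.0307). Its partner chain Cd79a had a change of -0.60 (adjusted p over genes 0.311). Without Cd79b, a gene left out after its values were seen, the sum was 855, 1006 and 646 in the arrays labelled double knockout and 532, 872 and 966 in the wild type arrays, so the groups then overlapped. The surrogate light chain gene Vpreb1 read 471, 468 and 262 on the arrays labelled double knockout, against 129, 255 and 625 on the wild type arrays. Of the defining factors, Ebf1 lay above the brightest bacterial control on 1 array and Pax5 on 4. The part of such cells in the values above was not tested.

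**Figure D2:**
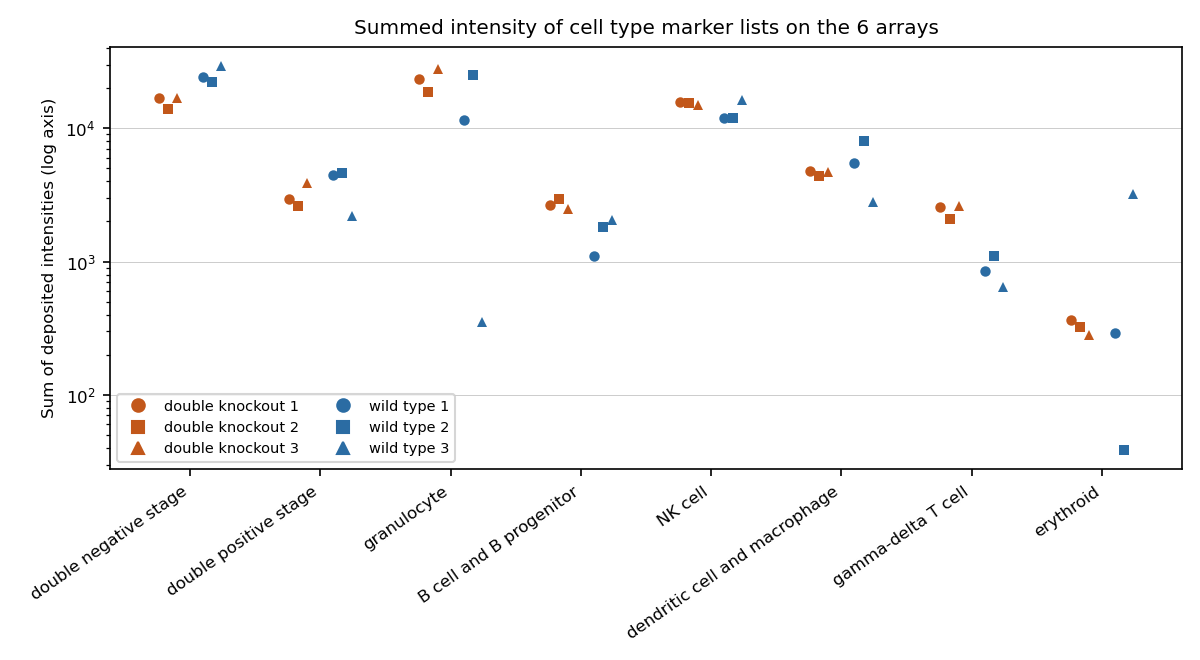
Sum of deposited intensities (log axis) over each list of cell type markers, with the arrays labelled double knockout on the left (orange) and the wild type arrays on the right (blue). Wild type replicate 3 stands apart for granulocyte genes at 351 and for erythroid genes at 3228. The groups separate for double negative stage, B lineage (through Cd79b) and gamma-delta genes (without Tcrg-C1 and Trdc), and overlap for the other 5 lists.

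The Ku genes had changes of opposite sign, and Xrcc6 alone passed. Xrcc6, which encodes Ku70, read 7038, 9384 and 6284 on the arrays labelled double knockout at its brighter probe set, against 2782, 2834 and 5162 on the wild type arrays. The groups did not overlap, and wild type replicate 3 lay nearest to the arrays labelled double knockout. The mean was 7569 ± 1617 in arrays labelled double knockout and 3593 ± 1359 in wild type arrays (SD, n = 3 each), a ratio of 2.11 and a log2 change of 1.10 (SE 0.26, 95% interval 0.53 to 1.66, limma adjusted p = 0.0318).

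The Xrcc6 call at this probe set was likewise lost when single arrays were left out, with the rise still between 0.92 and 1.38. Adjusted p was 0.137, 0.124 and 0.0589 without double knockout replicates 1, 2 and 3, 0.126 and 0.123 without wild type replicates 1 and 2, and 0.00121 without wild type replicate 3.

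At the dimmer Xrcc6 probe set, intensities were 123, 273 and 30.8 on the arrays labelled double knockout, against 20.6, 20.3 and 103 on the wild type arrays. Double knockout replicate 3 fell below wild type replicate 3, so the groups overlapped, and wild type replicate 1 lay under the brightest bacterial control. Both Xrcc6 probe sets were highest on double knockout replicate 2 and, among wild type arrays, on replicate 3. The change of 1.18 did not pass (SE 0.59, 95% interval -0.11 to 2.46, adjusted p = 0.316).

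Xrcc5, which encodes Ku80, read 190, 110 and 206 on the arrays labelled double knockout, against 225, 239 and 203 on the wild type arrays. Double knockout replicate 2 was the low array, and the others lay close together. The change was -0.43 (SE 0.28, 95% interval -1.04 to 0.19, limma adjusted p = 0.466).

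Prkdc, the DNA-PK catalytic subunit, read 144, 116 and 160 on the arrays labelled double knockout, against 211, 194 and 131 on the wild type arrays. Wild type replicate 3 fell among the arrays labelled double knockout. The change was -0.32 (SE 0.27, 95% interval -0.90 to 0.26, limma adjusted p = 0.583).

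**Figure D3:**
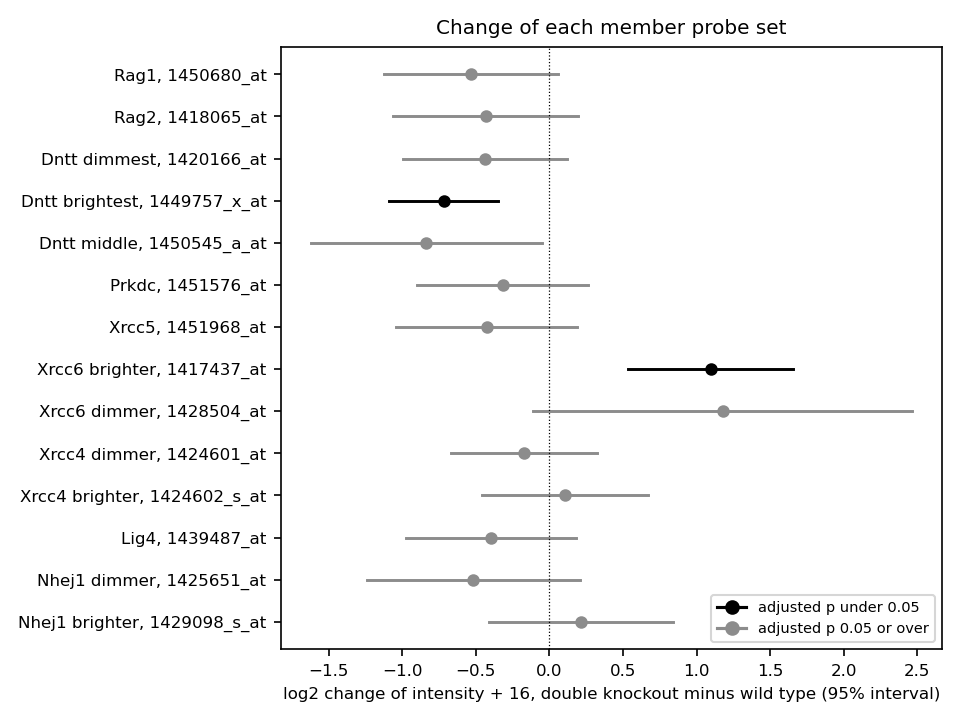
log2 change of each probe set (point) with its 95% interval (line), arrays labelled double knockout minus wild type arrays, in the order recombinase, Dntt, Prkdc, Ku and ligation genes. Black marks the 2 probe sets with an adjusted p under 0.05, Dntt at -0.72 and Xrcc6 at 1.10, and grey the other 12, whose intervals include 0 except for the Dntt probe set of middle brightness.

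None of the 5 probe sets of the ligation genes passed. Lig4 read 260, 378 and 252 on the arrays labelled double knockout, against 503, 359 and 316 on the wild type arrays. The groups overlapped at double knockout replicate 2. The change was -0.40 (SE 0.26, 95% interval -0.98 to 0.18, limma adjusted p = 0.469).

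Xrcc4, the scaffold that holds ligase IV, gave changes of opposite sign on its probe sets. The dimmer read 89.2, 109 and 94.0 on the arrays labelled double knockout, against 116, 112 and 102 on the wild type arrays, a change of -0.17 (SE 0.23, 95% interval -0.67 to 0.32). The brighter, an s_at probe set of a kind that can read more than 1 transcript, read 167, 174 and 175 on the arrays labelled double knockout, against 131, 132 and 219 on the wild type arrays, a change of 0.11 (SE 0.26, 95% interval -0.46 to 0.67). In size these were the smallest changes of the 14, with limma adjusted p of 0.748 and 0.872.

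Nhej1, the XLF factor that stabilises the ligation complex, was also split. Its dimmer probe set gave 25.3, 9.10 and 40.4 on the arrays labelled double knockout, against 45.7, 45.0 and 27.9 on the wild type arrays, and only 4 of the 6 arrays lay above their brightest bacterial control. The brighter, also of the s_at kind, read 113, 126 and 118 on the arrays labelled double knockout, inside the range of the wild type arrays at 65.4, 93.3 and 153. The changes were -0.52 (SE 0.33, limma adjusted p = 0.447) and 0.22 (SE 0.29, adjusted p = 0.753), each with an interval that includes 0. On both s_at probe sets, of Xrcc4 and Nhej1, wild type replicate 3 was the highest of the 6 arrays and wild type replicate 1 the lowest.

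**Figure D4:**
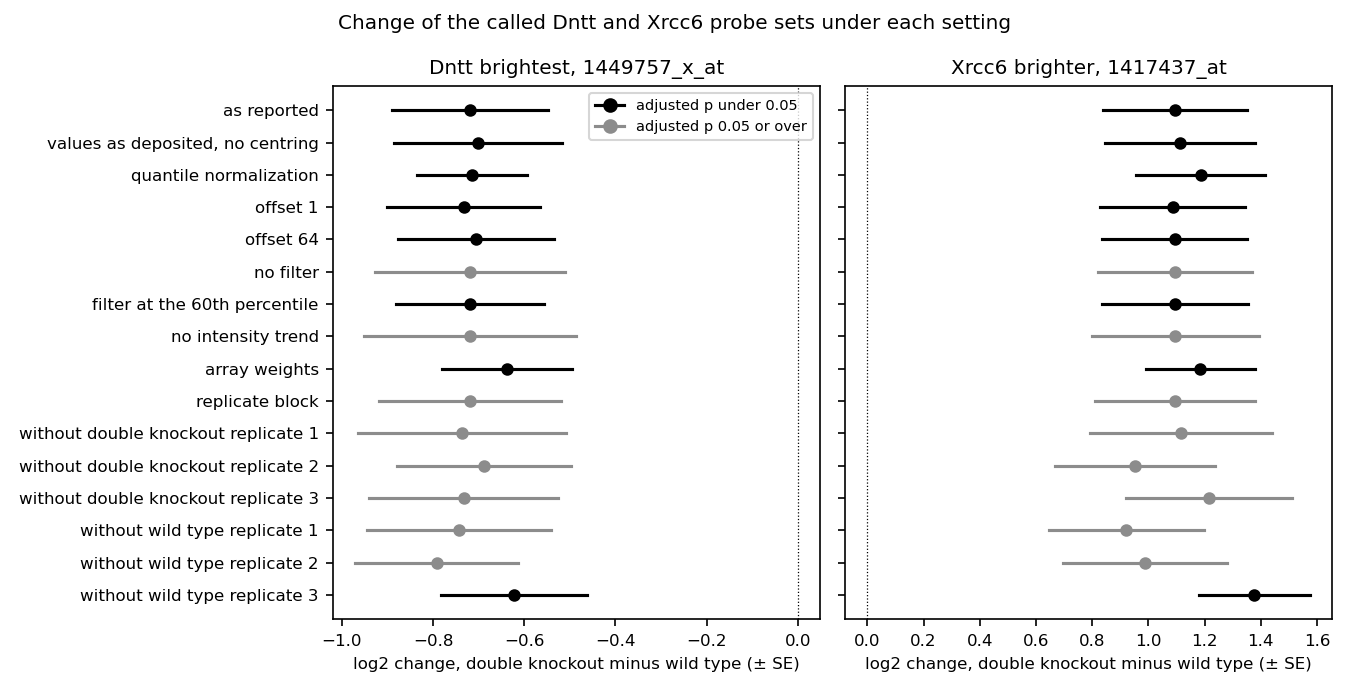
log2 change (point) and its SE (line) of the brightest Dntt probe set (left) and the brighter Xrcc6 probe set (right), as reported and under 15 other settings. Black marks an adjusted p under 0.05; the direction held in all of them, while 8 of the 15 took each probe set past the threshold to grey.

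Other genes of the same pathways were set beside the members with 1 probe set, that of highest mean, for each gene. In the arrays labelled double knockout, 1 of the 60 tested was higher and 3 lower, against a background of 7.47% of 13187 genes (4.41% higher, 3.06% lower), so the count was near the background. None of the 60 was called when any 1 array other than wild type replicate 3 was left out. Of all probe sets, between 1.39% and 2.64% were called in those fits. Between 8 and 11 of the 60 then had an unadjusted limma p under 0.05, as did between 3618 and 4446 of all 27022 probe sets. Without wild type replicate 3, 13 were called, 12 of them lower, where 10.2% of all probe sets were called.

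Among 8 end processing and gap filling genes, Paxx rose and the other 7 did not pass (median -0.19, against -0.013 over all genes). Paxx, a paralogue of XRCC4 and XLF that binds Ku, read 499, 452 and 524 on the arrays labelled double knockout, against 196, 203 and 310 on the wild type arrays. The groups did not overlap. Its change was 1.02 (SE 0.26, limma adjusted p over genes 0.034), and its dimmer probe set also gave 1.02 (SE 0.25, adjusted p over probe sets 0.0396). Aplf, a histone chaperone of end joining named here after its values were seen, gave -0.18 on its brighter probe set. A dim one read 67.4, 94.5 and 28.0 in the arrays labelled double knockout and 5.28, 10.9 and 6.72 in the wild type arrays. The wild type values lay under the brightest bacterial control of each array, so the level there has only a bound and no fold is given.

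None of 12 genes of the double strand break response passed (median -0.39), while 3 had an unadjusted limma p under 0.05. The smallest p values belonged to Nbn, of the MRN complex that senses breaks, with a change of -0.74 (SE 0.23, adjusted p over genes 0.0752), and to Trp53bp1, which shields ends from resection, with -0.51 (SE 0.20, adjusted p 0.167). Of 7 genes of alternative end joining, which rejoins ends without Ku, Parp1 fell (median of the list -0.46). Parp1, the nick and break sensor, read 869, 842 and 1030 in the arrays labelled double knockout, against 2446, 1619 and 1471 in the wild type arrays. Its change was -0.99 (SE 0.25, limma adjusted p over genes 0.0325), with -0.74, -0.40 and -0.10 on its other probe sets, none past the threshold.

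Of 10 genes for protein partners and turnover of RAG, Skp2 fell (median of the list -0.39). SKP2 is the ubiquitin ligase subunit that marks RAG2 for degradation as cells enter S phase. It read 276, 316 and 412 in the arrays labelled double knockout, against 1182, 951 and 446 in the wild type arrays, a change of -1.25 (SE 0.34, limma adjusted p over genes 0.0489). Adjusted over probe sets, limma p was 0.0604 for the same probe set. The next in brightness gave -0.84, with overlap (limma adjusted p = 0.167), and the one after it -1.18 (0.0547). Dimmer ones gave -0.38 and 0.35, neither past the threshold, and the dimmest was left out by the filter. Hmgb2, whose protein bends DNA for the recombinase, is named here though it did not pass. Its change was 0.39 at its brightest probe set and 0.49 and -0.59 at the others, none past the threshold.

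Among 18 transcriptional regulators of the Rag genes, Runx1 fell (median of the list -0.024). Runx1, a factor of the core binding complex, read 548, 450 and 492 in the arrays labelled double knockout, against 2000, 1510 and 755 in the wild type arrays. Its change was -1.40 (SE 0.33, limma adjusted p over genes 0.0253). Its dimmest probe set also gave -1.40 and passed (limma adjusted p over probe sets 0.0396), but lay above the brightest bacterial control on only 2 arrays. The rest ranged from -0.64 to 0.13, none past the threshold. Foxo1, whose product activates Rag transcription in B lineage cells of the mouse, is named here after its values were seen. It gave 0.40 on its brightest probe set and 0.17 on the next, neither past the threshold. A dimmer one gave 1.32 (limma adjusted p over probe sets 0.0073), and the dimmest was left out by the filter. The one at 1.32 read 129, 139 and 117 in the arrays labelled double knockout and 42.6, 45.4 and 35.1 in the wild type arrays.

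**Figure D5:**
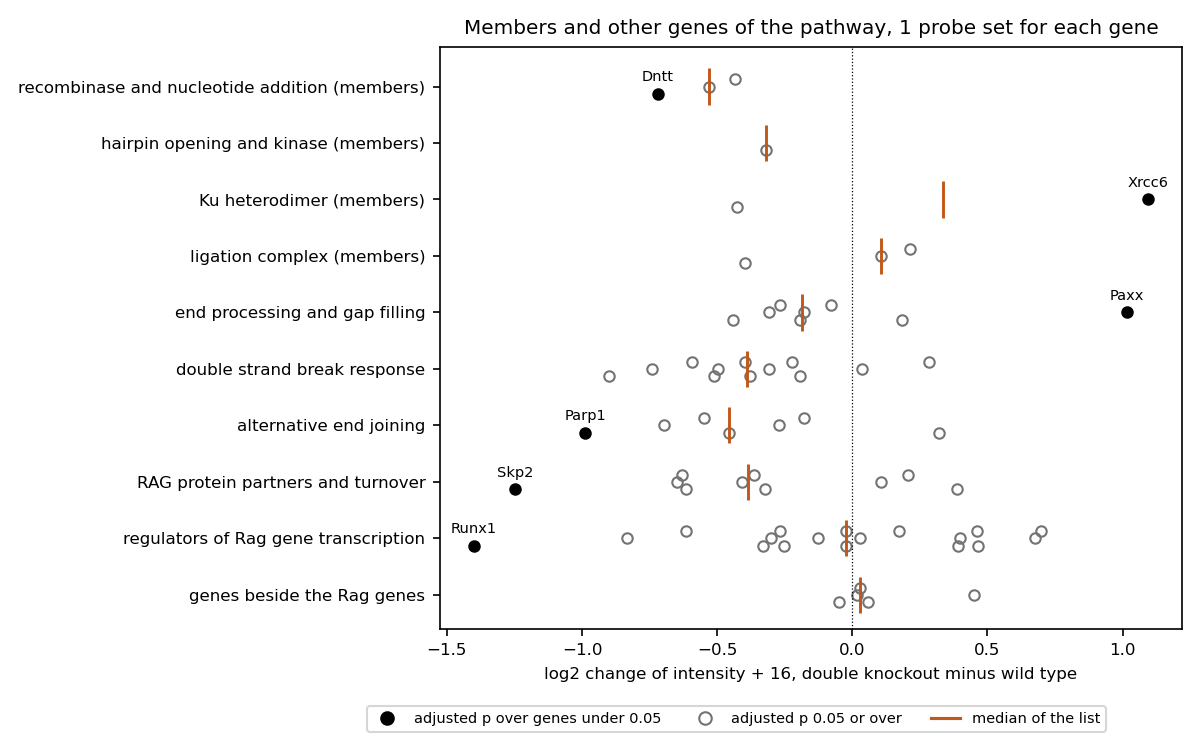
log2 change of each gene (circle, 1 probe set for each gene), arrays labelled double knockout minus wild type arrays, by group of members and by list of other pathway genes, with the list's median as a line. Filled circles passed at an adjusted p over genes under 0.05: Paxx and Xrcc6 higher, and Dntt, Parp1, Skp2 and Runx1 lower.

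The genes whose profile over the 6 arrays was nearest to that of each lymphoid member were found among 12337 others by the root mean square difference of log2 values less each gene's own mean. For Dntt, by its brightest probe set, they were Nudt2, Nifk and Trap1, at 0.066, 0.067 and 0.069, with changes of -0.68, -0.75 and -0.79. For Rag1 they were Macroh2a2, Yrdc and Gfra2, at 0.11, 0.11 and 0.13. For Rag2 they were Tmem250-ps, Icosl and Psma4, at 0.083, 0.086 and 0.088. No gene was shared between these 3 sets.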

How the data were processed

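The authors deposited a table of linear intensities, with a value per probe set for every array. Their scanner software and probe summary are not stated in the labels. Their trimmed mean over the middle 96% was 150 on every array, and array medians lay between 19.9 and 23.1. No scanner files or detection calls were used, and the number of arrays (3 for each label) limits the precision. Groups and replicate numbers came from the titles. Probe sets were named through the platform annotation, with symbols updated by gene ID from RefSeq (GRCm38.p6; 34741 of 34945 matched). After 64 controls were removed, log2(intensity + 16) was centred on each array's median, since medians differed by 0.126, and probe sets under the 40th percentile of mean log2 (4.87) were left out. limma 3.58.1 in R 4.3.3 (lmFit, eBayes with trend) tested double knockout minus wild type, two-sided, with Benjamini-Hochberg adjustment over all 27022 probe sets or, with the brightest probe set for each gene, over 13187 genes. The threshold was 0.05. The fit was tested on simulated data.

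The members and lists were chosen with earlier results of these data known. The members were all named. From each pathway list every gene past the threshold was named or, where none passed, the 2 of smallest p, and 3 nearest profiles were named for Rag1, Rag2 and Dntt. Aplf, Hmgb2, Foxo1 and all the genes beside the Rag pair were named besides. Of 64 listed pathway genes, 60 were tested, and the others were not analysed here. Whether arrays come from separate litters or sorts is not given, so p-values measure the spread between these animals only. Alternatives were scaling, offset, filter, variance model, array weights, a replicate block, each array left out and adjustment over genes.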

Additional observations from a re-analysis of the deposited data

How the results depend on the processing

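Across the 14 probe sets and 15 alternatives each, 190 of 210 changes had the direction and side of the threshold reported, 16 lost the call, 2 gained it and 2 reversed. The 16 losses were 8 each for the brightest Dntt and brighter Xrcc6 probe sets, under no filter (adjusted p 0.124 and 0.0713), no intensity trend (0.119 and 0.0662), the replicate block (0.103 and 0.0825) and the 5 arrays named above. The gains were the middle Dntt probe set without wild type replicate 1 and the dimmer Xrcc6 probe set with array weights (adjusted p = 0.0483). Without wild type replicate 1, the brighter Xrcc4 (-0.029) and Nhej1 (-0.053) probe sets reversed. Over all arrays left out in turn they ranged from these values up to 0.32 and 0.49. The causes were not tested.

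In limma, the number of members' probe sets called was 0 with no filter, with no intensity trend and with the replicate block. It was between 0 and 2 when an array was left out. Over all probe sets, 953 (2.12%), 1133 (4.19%) and 573 (2.12%) were called under the first 3 of these settings. With array weights 3417 (12.6%) were called, and between 376 (1.39%) and 2744 (10.2%) when an array was left out. An unadjusted limma p under 0.05 was found for 3, 2 and 3 of the members' probe sets under the first 3 settings. Over all probe sets it was found for 6100 of 45037, 4957 of 27022 and 4088 of 27022. Of the pathway genes, 2 were called with no trend, 10 with array weights, 0 with the block (9 at an unadjusted p under 0.05) and between 0 and 13 when an array was left out. Same-numbered arrays did not deviate together (correlations of -0.05, -0.13 and -0.29 across probe sets), and no array correlated best with its own number. With 3 arrays in each group, such correlations cannot decide whether the number pairs animals. Of the other genes named as past the threshold, Ptcra, Gpr83, Nkg7 and Klrd1 kept their calls under all 15 alternatives, while Cd163l1 lost its call under 1, Il2ra under 2, Cd79b, Paxx and Runx1 under 6 each, Parp1 under 7 and Skp2 under 10, none with a change of direction. The Egr1 values and the marker sums were not recomputed under these alternatives.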
